A study of Mus musculus with 24 samples.

Results

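Cholesterol genes of the prefrontal cortex (PFC) were followed through chronic social defeat stress and a single dexamethasone (DEX) injection. The set was taken from the pathway by gene symbol and held 35 genes: 18 enzymes of cholesterol synthesis, 7 regulators and 10 genes of transport and turnover. Of these, 33 were among the 14074 genes of the normalized count table (17, 6 and 10). Fdps and Nr1h3 are not analysed here. Each of the 33 genes had at least 204 reads in every library.

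Bulk RNA-seq was available for 24 adult male C57BL/6 mice in 6 groups of 4, with 1 library per mouse. Control mice were not defeated, and the other mice met aggressive CD1 males for 30 days. The defeated mice were divided into animals with a passive (PS) and animals with an active (AS) coping strategy by clustering of their behavior during non-aggressive contact, so these are behavioral classes of defeated mice and not treatments, and atypical animals had been set aside by the study. Control, PS and AS animals each received saline or 2 mg/kg of DEX, a synthetic glucocorticoid receptor agonist, and tissue was taken 6 h later. Saline was thus the injection control in each phenotype. The libraries were made from poly(A) RNA of a tissue block with several frontal areas, so a difference in the share of a cell type and a difference in RNA per cell cannot be told apart. Library depth, recovered from the normalized counts, ran from 21121869 to 59439645 reads on genes with a median of 24420129.5. The control groups were shallower than the AS groups, with medians of 22869703 reads in control saline and 23492572 in control DEX, against 34242532 in AS saline and 37876626 in AS DEX.

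In the brain, cholesterol is made locally, since plasma lipoproteins do not cross the intact blood-brain barrier. Acetyl-CoA is built up through mevalonate and farnesyl pyrophosphate to squalene, which is cyclized to lanosterol and trimmed to cholesterol. The SREBP transcription factors, held in the endoplasmic reticulum by SCAP and the INSIG proteins while sterols are plentiful, switch on synthesis genes, whereas liver X receptors switch on export by ABC transporters to apolipoprotein E particles. Neurons dispose of cholesterol mostly by 24-hydroxylation through CYP46A1.

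In the mean DEX response over control, PS and AS animals, 8 of the 33 genes passed the threshold (24.2%, against 15.5% of all genes tested) and 25 did not. The gene of squalene synthase, Fdft1, was 1.35-fold higher after DEX in that mean. Hsd17b7, which acts later in synthesis, and the exporters Abca1 and Abcg1 were also higher. The SREBP gene Srebf2, the enzyme gene Dhcr7, the transporter gene Abcg4 and the cholesterol-esterifying enzyme gene Soat1 were lower. Within single phenotypes, limma called Fdft1 in each, Abca1, Srebf2 and Abcg4 in control alone, Hsd17b7 in PS alone and Abcg1 in PS and AS animals. On the log2 scale, Srebf2 and Abcg4 were at 0.03 and -0.00 in PS animals, and Abcg1 was at -0.02 in control animals. No difference of these responses between phenotypes passed with limma. The Dhcr7 call was lost without any one of 7 libraries, and the Soat1 call without 6 libraries high in olfactory bulb genes. Under saline, limma called Abcg4 alone among the 33 genes between defeated and control animals, as lower in PS animals. This call was lost without any one of 5 libraries and without the libraries high in olfactory bulb genes. DESeq2 also called Scap in PS and Npc2 in AS animals.

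**Figure D1:**
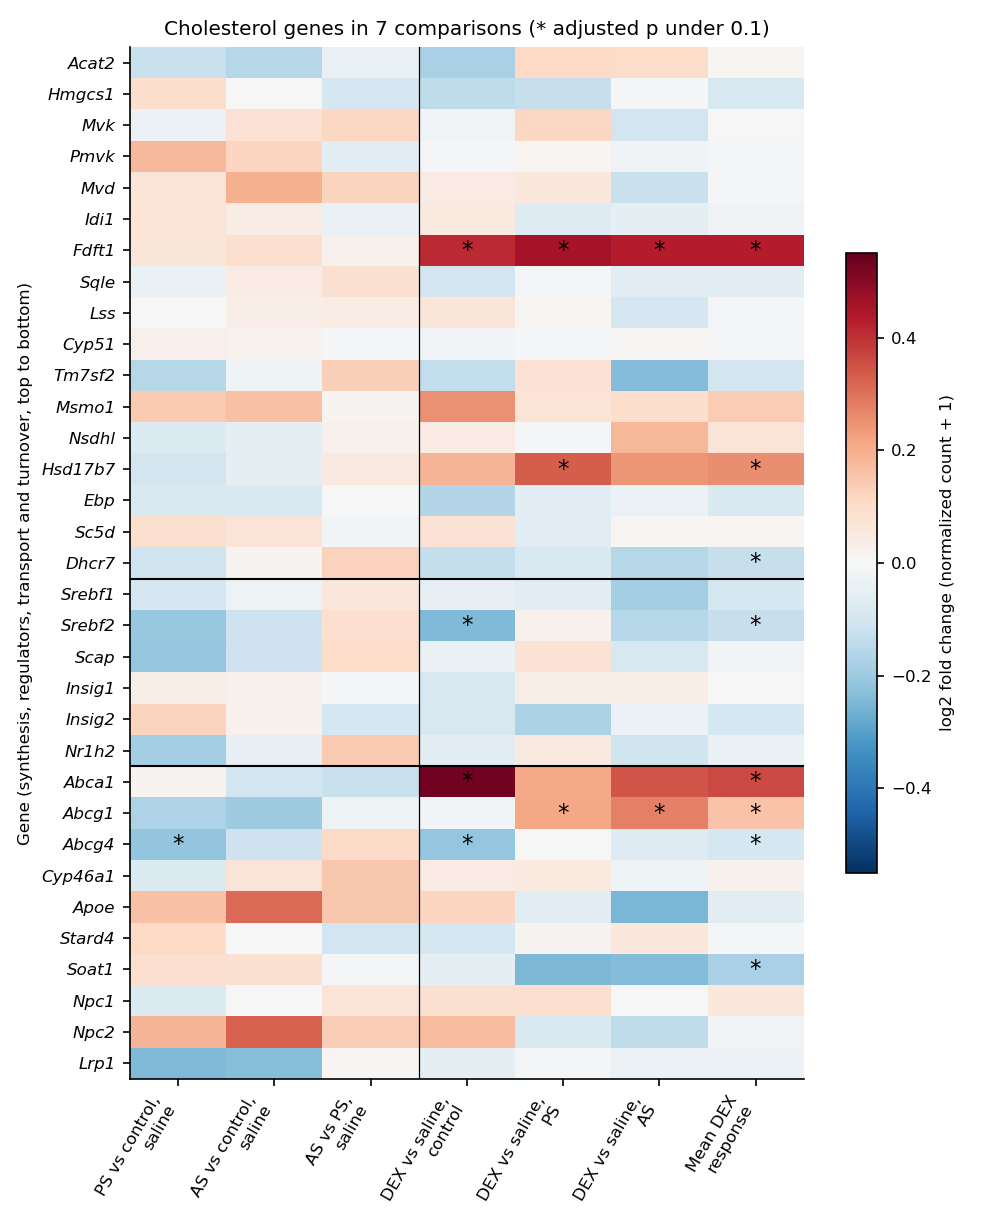
Log2 fold changes (color, on the scale of log2 of the normalized count + 1) of the 33 genes (rows, in the order synthesis, regulators, transport and turnover) in 7 comparisons (columns), with an asterisk where the limma adjusted p was under 0.1. Fdft1 carries an asterisk in all 3 DEX comparisons and in their mean, and most rows carry none.

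Some of these genes can be viewed beside short stretches of their promoters. RefSeq promoter windows of 300 bases (250 before to 50 after the start, build GRCm38.p6) were matched by symbol for 27 of the 33 genes; Fdft1, Sqle, Abcg1, Abcg4, Stard4 and Npc1 were not matched. The 30-base windows below come from Hmgcs1, the one matched gene with the sterol regulatory element searched for, and from the matched genes that passed the threshold after DEX. They read 5′ to 3′ on the strand of the gene, and capitals mark the matched letters (TCACNCCAC for the sterol regulatory element, CCAAT or its reverse complement ATTGG for the CCAAT box, CACGTG for the E-box).
Hmgcs1, sterol regulatory element, chr13:119690204-119690233, plus strand: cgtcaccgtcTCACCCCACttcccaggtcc
Hsd17b7, CCAAT box, chr1:169969261-169969290, minus strand: tgccgagtcgcgATTGGcgggcctaacgcg
Hsd17b7, E-box, chr1:169969331-169969360, minus strand: ggacccttgtgtCACGTGgctccgcccctc
Dhcr7, CCAAT box, chr7:143830117-143830146, plus strand: tcactgccttcaCCAATcacaggacgcagc
Srebf2, CCAAT box, chr15:82147122-82147151, plus strand: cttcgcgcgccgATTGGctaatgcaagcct
Soat1, CCAAT box, chr1:156474341-156474370, minus strand: gccgcaggaccaCCAATggcatcccggagc
Abca1, E-box, chr4:53160025-53160054, minus strand: gggccatgtctcCACGTGctttctgctgag

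Both strands were searched, and the letters of different motifs did not overlap in the windows shown. CCAAT was present in 14 of the 15 matched synthesis genes (all but Acat2), in 4 of the 6 regulators and in 3 of the 6 matched transport genes. Over all 27025 genes with a window 41.1% held it, as did 42.5% of the 10029 of these in the expression table. The sterol regulatory element was found in Hmgcs1 alone, 137 bases before the start, against 1.44% of all genes and 1.39% of those in the expression table. The E-box was found in Hsd17b7, Sc5d, Dhcr7, Scap, Insig1 and Abca1, against 8.09% of all genes and 11.9% of those in the expression table. No matched member held the palindromic glucocorticoid receptor motif or the liver X receptor direct repeat searched for, which were found in 0.537% and 0.0148% of all genes and in 0.419% and 0% of those in the expression table. A match describes letters in a window and not a bound site, and a missing match says only that these letters are not in the window.

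Levels differed widely among the genes. Per kilobase of exon, Apoe, which encodes the main lipid carrier of brain lipoproteins, was the highest with a mean of 17220 normalized counts per kilobase over the 24 libraries. Cyp46a1 (2219), the 3-hydroxy-3-methylglutaryl-CoA synthase gene Hmgcs1 (1623), the lipoprotein receptor gene Lrp1 (1068), Srebf2 (1031) and Fdft1 (690.4) followed on the same scale. Abca1 (114.7) and Soat1 (79.6) were the lowest. The spread between mice of one group was small: the residual SD on the log2 scale had a median of 0.120 over the 33 genes, against 0.145 over all genes, and ran from 0.0658 for Sc5d to 0.243 for Lrp1.

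Checks on the tissue and the treatment came first. The pyramidal neuron marker Slc17a7 lay between 41898 and 54240 normalized counts in all libraries, and Neurod6 was present in all of them. The glucocorticoid-induced gene Fkbp5 rose in all 3 phenotypes, by 2.26 on the log2 scale in control mice, by 2.00 in PS mice and by 1.91 in AS mice (limma adjusted p = 9.31e-13, 1.35e-11 and 3.79e-11), and Tsc22d3 and Sgk1 also passed the threshold in each. Per1, also in the planned check, rose less. Its mean normalized counts with saline and DEX were 3713 and 4313 in control, 3300 and 4057 in PS, and 3757 and 4086 in AS mice. Of the 24 libraries, 6 stood apart for genes of the olfactory bulb, a neighbouring structure that was taken off before the PFC was dissected. Their normalized counts of Cdhr1, a gene of olfactory bulb output neurons, were 2653 in control saline mouse 117, 513.5 in control DEX mouse 122, 826.9 in PS saline mouse 2, 2021 in PS DEX mouse 34, 974.1 in AS saline mouse 14 and 364.6 in AS DEX mouse 38. In the other libraries Cdhr1 did not exceed 197.2. Since 1 library of each group was affected, the calls of the cholesterol, fatty acid and sterol handling genes were repeated on the remaining 3 libraries per group, and those of the cell type markers and of Fkbp5, Tsc22d3 and Sgk1 were not.

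Fdft1 (ENSMUSG00000021273.11, mm10 chr14:63145150-63179578, minus strand) encodes squalene synthase, the first enzyme committed to sterols. In control animals its normalized counts were 2351, 2564, 2385 and 2263 with saline and 3508, 3246, 3096 and 2890 with DEX. In PS animals they were 2524, 2366, 2626 and 2503 with saline and 3459, 3905, 3192 and 3235 with DEX. In AS animals they were 2475, 2477, 2327 and 2923 with saline and 3204, 3270, 3781 and 3471 with DEX. Every DEX library was above every saline library of its own phenotype, so the groups overlapped in none of the phenotypes. The closest pair was in AS animals, where saline mouse 44 reached 2923 and the lowest DEX library was at 3204. The change was 0.41 ± 0.077 (SE) on the log2 scale in control animals (1.33-fold, limma adjusted p = 0.00137), 0.46 ± 0.077 in PS animals (1.37-fold, 0.000531) and 0.43 ± 0.077 in AS animals (1.35-fold, 0.00089), with n = 4 per group. Averaged over the 3 phenotypes it was 0.43 ± 0.044 (limma adjusted p = 1.32e-07). Each of these calls held without any single library and under every other setting tried. Without the 6 libraries high in olfactory bulb genes, the change was 0.43 in control mice, 0.40 in PS mice and 0.45 in AS mice.

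Exons of 9 of the 33 genes overlap those of another annotated gene, and for 5 of them that gene is protein-coding. Fdft1 shares 774 of its 4227 exon bases with Ctsb, a lysosomal protease gene on the opposite strand. The libraries were strand-specific, but the strand setting of the counting is not given in the sources used here. Ctsb lay between 13562 and 14851 normalized counts in control saline and between 13510 and 14400 in control DEX libraries, and these ranges overlapped; over all 24 libraries it ran from 13510 to 16325. Its log2 change with DEX was -0.03 in control mice, 0.05 in PS mice and 0.08 in AS mice, with intervals that included 0 in each (limma adjusted p = 0.899, 0.833 and 0.558).

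**Figure D2:**
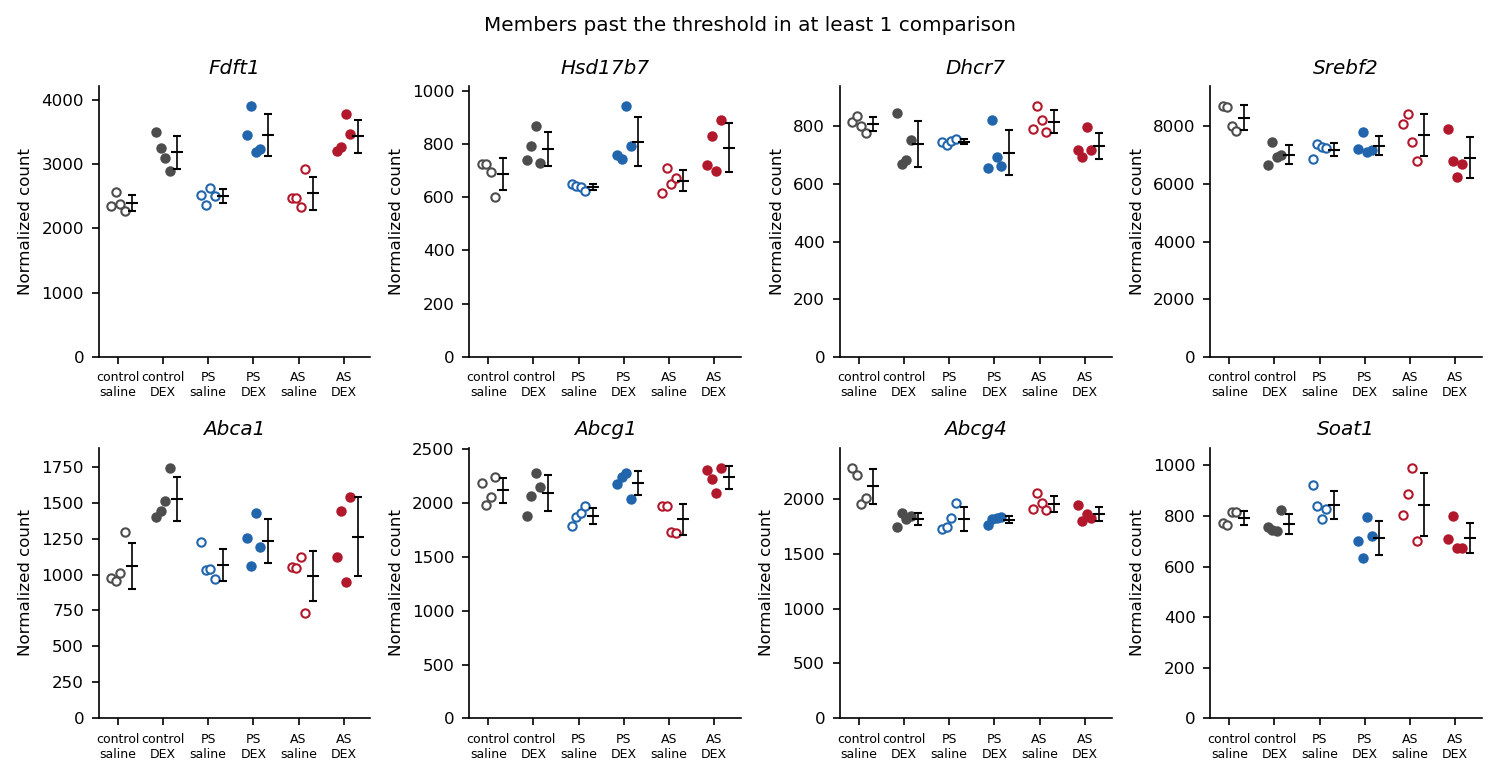
Normalized counts (vertical axes, starting at 0) of the 8 genes past the threshold in at least 1 comparison, with 1 point per mouse, open for saline and filled for DEX; dashes with bars are the mean ± SD of 4 mice. For Fdft1 every DEX point is above every saline point of the same phenotype, while the groups of Dhcr7 and Soat1 overlap.

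Hsd17b7 encodes a ketosteroid reductase that restores the hydroxyl group of the sterol ring while its methyl groups are removed. In PS animals it was at 649.8, 640.1, 638.3 and 624.4 normalized counts with saline and at 757, 743.7, 942.1 and 791.1 with DEX, without overlap. The log2 change was 0.33 ± 0.087 (1.26-fold, limma adjusted p = 0.0285), and the call was lost without PS DEX mouse 52, the highest library (adjusted p = 0.124). In control animals the libraries were at 724.9, 725.5, 695.9 and 598.7 with saline and at 737.8, 793.7, 867.7 and 728.4 with DEX. They did not overlap by a narrow margin, and the change of 0.19 ± 0.087 did not pass the threshold (limma adjusted p = 0.291). In AS animals the libraries were at 614.1, 708, 650.1 and 671.6 with saline and at 722, 831.1, 696.8 and 891.2 with DEX, and AS DEX mouse 60 lay below the highest saline library. The change there was 0.24 ± 0.087 (limma adjusted p = 0.11). The mean over the 3 phenotypes was 0.26 ± 0.050 and passed the threshold (limma adjusted p = 0.00088), also without any single library.

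Dhcr7, which encodes the reductase of the last step to cholesterol in one of the pathway's branches, was the one synthesis gene to pass the threshold downward in the mean over phenotypes, at -0.13 ± 0.044 on the log2 scale (limma adjusted p = 0.0648). This call was lost when any one of 7 libraries was left out, with adjusted p up to 0.126. In control mice it was at 813.9, 836.1, 802.2 and 777.2 normalized counts with saline and at 847.5, 670.8, 684.1 and 754 with DEX. In PS mice it was at 746.6, 735, 749.6 and 756.8 with saline and at 655.4, 822.1, 693.2 and 661.6 with DEX, and in AS mice at 790, 870.5, 823.7 and 781.8 with saline and at 717.4, 694, 796.7 and 718.5 with DEX. The groups overlapped in each phenotype, where 1 DEX library lay above some or all of the saline libraries and the other 3 lay below them all.

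The other 14 synthesis genes did not pass the threshold after DEX. They included Hmgcs1, which makes the substrate of the rate-limiting reductase, with log2 changes of -0.14 (control), -0.12 (PS) and -0.01 (AS), and the squalene epoxidase gene Sqle, directly after Fdft1 in the pathway, with -0.11, -0.01 and -0.06. Sqle was at 1432, 1554, 1460 and 1394 normalized counts in control saline and at 1319, 1461, 1362 and 1284 in control DEX libraries, which overlapped. Msmo1, which encodes the oxidase of the carbon 4 methyl groups, came closest to the threshold in the mean over phenotypes (0.14 ± 0.055, limma adjusted p = 0.108). Its control libraries were at 1546, 1582, 1539 and 1310 with saline and at 2016, 1869, 1630 and 1611 with DEX and did not overlap, while those of PS and AS mice did. The remaining genes (Acat2, Mvk, Pmvk, Mvd, Idi1, Lss, Cyp51, Tm7sf2, Nsdhl, Ebp and Sc5d) lay between -0.24 (Tm7sf2 in AS mice) and 0.18 (Nsdhl in AS mice) on the log2 scale. Of the 17 synthesis genes, 1 passed in control mice (Fdft1), 2 in PS mice (Fdft1 and Hsd17b7) and 1 in AS mice (Fdft1). The median log2 change of the 17 genes was -0.01, 0.01 and -0.02, beside -0.01, -0.00 and 0.00 over all genes tested. For a typical synthesis gene the 95% interval reached 0.177 on the log2 scale to either side of the estimate within 1 phenotype, before any adjustment for the number of genes.

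Across all 33 genes, 4 passed the threshold after DEX in control animals (12.1%, against 6.49% of all genes), 2 of them higher (against 4.03% of all genes) and 2 lower (2.46%). In PS animals 3 passed (9.09%, against 5.36%), all higher, where 2.74% of all genes were higher and 2.62% lower. In AS animals 2 passed (6.06%, against 8.77%), both higher, where 3.82% of all genes were higher and 4.95% lower. This count depended on the tool: with edgeR and with DESeq2, 4 of the 33 genes passed there, with 1330 and 1614 of all genes called. In the mean over phenotypes, which rests on 12 libraries a side, 8 passed (24.2%, against 15.5% of all genes), 4 higher (against 7.46% of all genes) and 4 lower (8.01%). No test of these shares against the background was made.

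**Figure D3:**
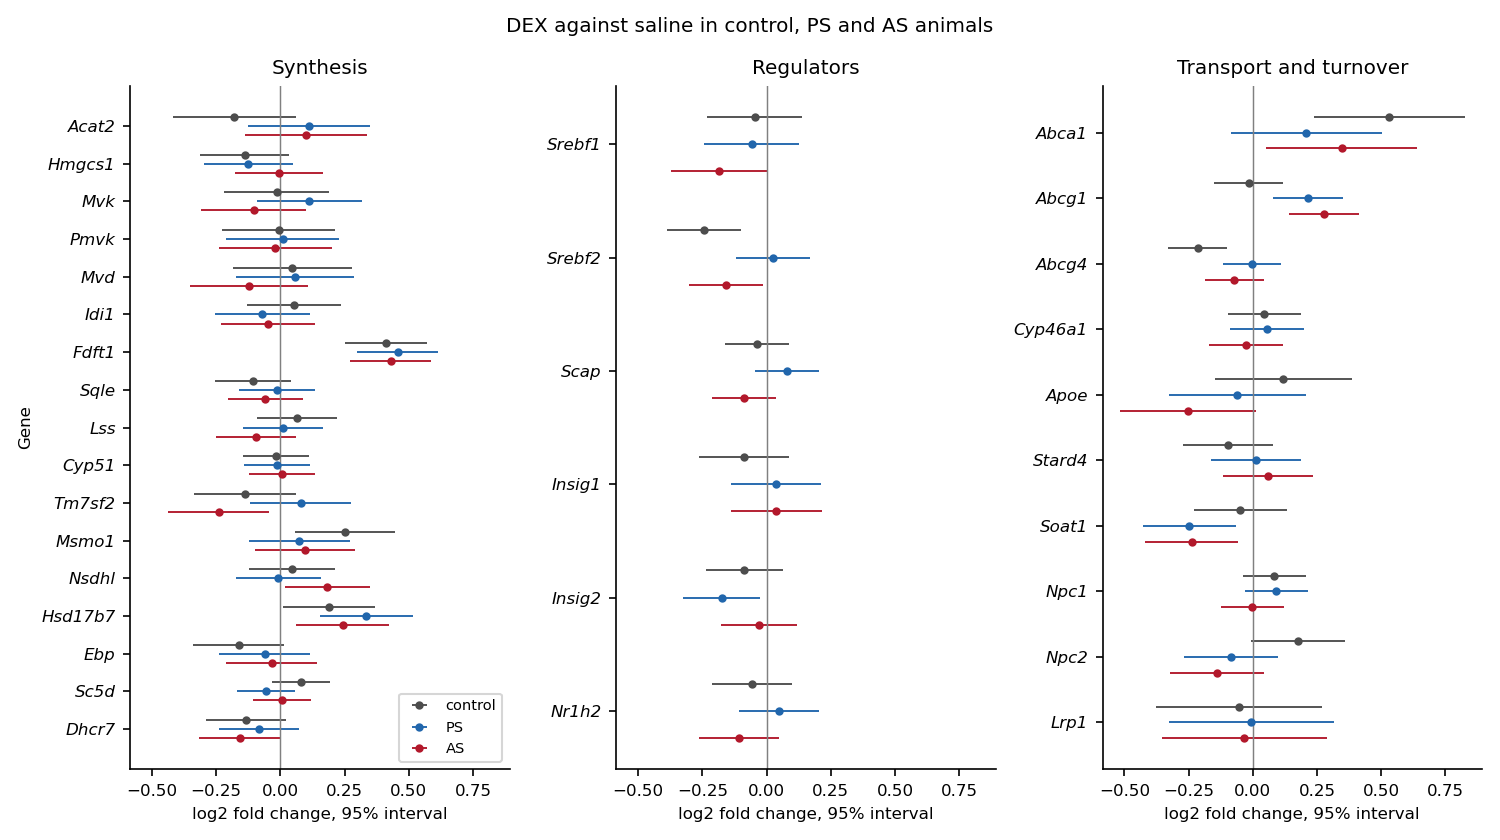
Log2 fold change of DEX against saline with its 95% interval (horizontal axes) for each gene (rows) in control, PS and AS animals, in panels for synthesis, regulators, and transport and turnover. The intervals of Fdft1 lie above 0 in all 3 phenotypes, and those of most synthesis genes include 0.

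Among the regulators, Srebf2 encodes SREBP2, the main activator of cholesterol synthesis genes. In control animals it was at 8706, 8670, 8029 and 7830 normalized counts with saline and at 6660, 7448, 6933 and 7010 with DEX, so every DEX library was lower. The log2 change was -0.24 ± 0.070 (0.844-fold, limma adjusted p = 0.0444), and the call was lost without control saline mouse 106 or 107 or control DEX mouse 101 (adjusted p up to 0.139). In PS animals the libraries were at 6876, 7398, 7273 and 7233 with saline and at 7222, 7809, 7108 and 7166 with DEX and overlapped, with a change of 0.03 ± 0.070. In AS animals they were at 8088, 8445, 7469 and 6813 with saline and at 7906, 6806, 6239 and 6679 with DEX and overlapped, with a change of -0.16 ± 0.070 (limma adjusted p = 0.219). The mean over phenotypes was -0.13 ± 0.040 and passed the threshold (limma adjusted p = 0.0419).

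The other 5 regulators did not pass the threshold in a DEX comparison. Srebf1, which encodes the SREBP1 forms tied mainly to fatty acid synthesis, differed by -0.05 (control), -0.06 (PS) and -0.18 (AS) on the log2 scale. The sterol sensor genes Insig1 and Insig2, the escort gene Scap and the liver X receptor beta gene Nr1h2 stayed between -0.17 and 0.08 on the log2 scale. In the mean over phenotypes, the 6 regulators had a median log2 change of -0.07, beside -0.00 over all genes.

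Of the transport genes, Abca1 encodes the transporter that loads cholesterol onto lipid-poor apolipoproteins. In control animals it was at 975.9, 954.2, 1013 and 1293 normalized counts with saline and at 1403, 1439, 1511 and 1744 with DEX, without overlap. The log2 change was 0.53 ± 0.142 (1.44-fold, limma adjusted p = 0.031), the largest of the 33 genes in that comparison. The call was lost without control saline mouse 107 or control DEX mouse 122 (adjusted p up to 0.115). In PS animals the libraries were at 1223, 1032, 1037 and 967.1 with saline and at 1251, 1063, 1428 and 1188 with DEX, and in AS animals at 1050, 1046, 1123 and 733.7 with saline and at 1119, 1442, 950.3 and 1541 with DEX. Both pairs of groups overlapped, and the changes of 0.21 ± 0.142 and 0.35 ± 0.142 did not pass (limma adjusted p = 0.614 and 0.178). The mean over phenotypes was 0.36 ± 0.082 (limma adjusted p = 0.00345) and passed under every setting tried.

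Abcg1 encodes a transporter that passes cholesterol to lipidated particles. In PS animals it was at 1789, 1868, 1906 and 1972 normalized counts with saline and at 2178, 2247, 2285 and 2037 with DEX, without overlap. The change was 0.21 ± 0.065 (limma adjusted p = 0.0712), and the call was lost without any one of 6 PS libraries and without the libraries high in olfactory bulb genes (0.18, adjusted p = 0.463). In AS animals it was at 1977, 1975, 1730 and 1722 with saline and at 2313, 2226, 2091 and 2332 with DEX, again without overlap. That change was 0.28 ± 0.065 (1.21-fold, limma adjusted p = 0.0107) and held without any single library and without the libraries high in olfactory bulb genes. In control animals the libraries were at 2188, 1982, 2058 and 2246 with saline and at 1886, 2069, 2279 and 2154 with DEX, and the change was -0.02 ± 0.065. Control saline libraries were already all above the PS and AS saline libraries, while the DEX libraries of the 3 phenotypes overlapped.

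Abcg4, a paralog of Abcg1, fell in control animals. It was at 2287, 2218, 1959 and 2005 normalized counts with saline and at 1747, 1874, 1818 and 1846 with DEX, and every DEX library was lower. The change was -0.21 ± 0.055 (limma adjusted p = 0.0238), and the call was lost without control saline mouse 106 (adjusted p = 0.109) and when only these groups were fitted (adjusted p = 0.104). In PS and AS animals the DEX and saline libraries overlapped, with changes of -0.00 ± 0.055 and -0.07 ± 0.055. The PS DEX libraries were at 1763, 1819, 1827 and 1840. Those of AS mice were at 1907, 2053, 1965 and 1899 with saline and at 1950, 1801, 1868 and 1826 with DEX.

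Soat1, which encodes the enzyme that esterifies cholesterol for storage, passed with limma only in the mean over phenotypes, at -0.18 ± 0.051 (limma adjusted p = 0.0205). In control mice it was at 772.1, 764.8, 815.8 and 814.7 normalized counts with saline and at 757.4, 743.1, 740.1 and 824.9 with DEX. In PS mice it was at 921.2, 840.8, 789.2 and 828.3 with saline and at 699.5, 635.1, 794 and 722.5 with DEX, and in AS mice at 803, 885.4, 991.2 and 700.5 with saline and at 706.9, 799.6, 672.9 and 672.5 with DEX. The groups overlapped in each phenotype. Without the 6 libraries high in olfactory bulb genes the mean change was -0.14 and did not pass (adjusted p = 0.172). Apoe, Cyp46a1, the lysosomal cholesterol carriers Npc1 and Npc2, the sterol carrier gene Stard4 and Lrp1 passed in no DEX comparison. Apoe, which is made mainly by astrocytes, ran from 29946 to 36981 normalized counts in control saline and from 30340 to 47170 in control DEX libraries. In PS mice it ran from 31910 to 40834 with saline and from 29692 to 42235 with DEX, and in AS mice from 39198 to 45174 with saline and from 29043 to 39553 with DEX. The log2 differences were 0.12 (control), -0.06 (PS) and -0.25 (AS), with limma adjusted p = 0.75, 0.924 and 0.308, and the groups overlapped in each phenotype.

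**Figure D4:**
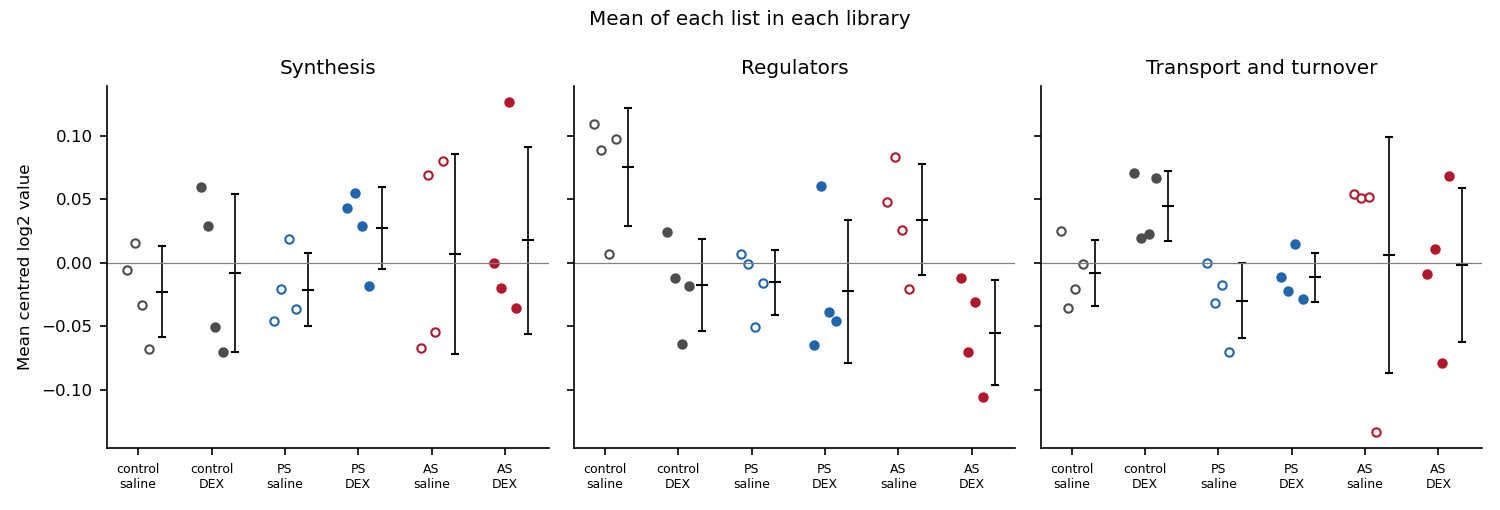
Mean over the genes of each list of the log2 value centred on the 24 libraries (vertical axis), with 1 point per mouse and mean ± SD bars, for synthesis (17 genes), regulators (6) and transport and turnover (10). The points of DEX (filled) and saline (open) animals overlap for synthesis in all 3 phenotypes.

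Whether the DEX response differed between phenotypes was tested directly as the difference of the changes. None of the 33 genes passed the threshold for PS minus control, AS minus control or AS minus PS (limma). Of all genes, 0%, 0.348% and 0% passed at the same adjusted p under 0.1. At an unadjusted p under 0.05 there were 4, 2 and 1 of the 33 genes, and 1404, 1902 and 344 of the 14074 genes. The edgeR test called none of the 33 either, and DESeq2 called Abcg1 for AS minus control (0.29, DESeq2 adjusted p = 0.0862), where it called 439 of all genes. In the limma fit the difference for Abcg1 was 0.29 ± 0.092 for AS minus control (limma adjusted p = 0.161) and 0.23 ± 0.092 for PS minus control (0.412). For Srebf2 the PS response minus the control response was 0.27 ± 0.099 (limma adjusted p = 0.379), and for Abcg4 it was 0.21 ± 0.078 (0.38). For Fdft1 the differences were 0.05 ± 0.108, 0.02 ± 0.108 and -0.03 ± 0.108, with 95% intervals from -0.18 to 0.27, from -0.20 to 0.24 and from -0.25 to 0.20. Calls for Srebf2 and Abcg4 in control animals are therefore not shown to be particular to them.

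Chronic stress was examined in the saline animals. In PS against control animals, 1 of the 33 genes passed (3.03%, against 1.51% of all genes), and this was Abcg4. Its PS saline libraries were at 1728, 1744, 1830 and 1968 normalized counts against 2287, 2218, 1959 and 2005 in the control saline libraries given above. PS saline mouse 68, at 1968, lay above the lowest control library, and the groups overlapped there. The change was -0.22 ± 0.055 on the log2 scale (0.859-fold, limma adjusted p = 0.0636). The call was lost without any one of 5 libraries, when only these groups were fitted (adjusted p = 0.118) and without the libraries high in olfactory bulb genes (adjusted p = 0.35). Over all settings tried, the change itself ran from -0.26 to -0.18. This comparison shares the control saline libraries with the DEX comparison in control animals, in which Abcg4 was also lower.

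Scap, the gene of the SREBP escort protein, came next in PS animals. It was at 3261, 3154, 3053 and 3021 normalized counts in control and at 2648, 2632, 2762 and 2731 in PS saline libraries, without overlap. The change was -0.21 ± 0.060 (limma adjusted p = 0.107), and Scap was called by DESeq2 (adjusted p = 0.0401, with 431 of all genes called) and when only the control and PS saline groups were fitted with limma (adjusted p = 0.0483). Srebf2 was also lower without overlap, by 0.21 ± 0.070 (limma adjusted p = 0.183), and was called when only these groups were fitted (adjusted p = 0.0796). Nr1h2 was at 1575, 1413, 1363 and 1424 normalized counts in control and at 1309, 1313, 1199 and 1242 in PS saline libraries, without overlap (-0.19 ± 0.075, limma adjusted p = 0.273). How many of all genes separated in this way was not counted. Srebf1 (-0.09), Insig1 (0.03) and Insig2 (0.12) overlapped on either side of 0. The median of the 6 regulators was -0.14 on the log2 scale, beside 0.00 over all genes. The summed normalized counts of 4 oligodendrocyte precursor markers were also lower without overlap, at 5082, 5151, 4867 and 4960 in control and 4766, 4640, 4350 and 4744 in PS saline libraries, with none of the 4 past the threshold. Their part in these differences was not tested.

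None of the 33 genes passed in AS against control or in AS against PS animals under saline (limma), where 0.156% and 0% of all genes did at the same adjusted p under 0.1. At an unadjusted p under 0.05 there were 3 and 1 of the 33 genes, and 1548 and 671 of the 14074 genes. The edgeR test called none in either, and DESeq2 called Npc2 in AS against control animals (adjusted p = 0.0957), where it called 99 of all genes. Npc2, which encodes a lysosomal protein that hands free cholesterol to NPC1, was at 1092, 1126, 1103 and 1212 normalized counts in control saline and at 1444, 1357, 1362 and 1515 in AS saline libraries, without overlap. Its change was 0.32 ± 0.088 (1.25-fold, limma adjusted p = 0.223). In PS saline libraries Npc2 was at 1366, 1366, 1306 and 1138, also higher on average than in control but with overlap. Apoe was at 36981, 31537, 29946 and 35886 in control saline and at 45174, 39198, 41003 and 40843 in AS saline libraries, likewise without overlap, with a change of 0.31 ± 0.128 (limma adjusted p = 0.374). In the same libraries the summed normalized counts of 8 microglial markers were 10915, 10115, 9947 and 9660 in control saline and 11942, 11546, 12219 and 11476 in AS saline, also without overlap (median log2 difference 0.19, none of the 8 past the threshold). The mean centred log2 value of 12 astrocyte markers did not overlap either (-0.19 to -0.06 in control, -0.04 to 0.17 in AS saline), while their summed normalized counts overlapped and none of the 12 passed. The part of both lists in the differences of Npc2 and Apoe was not tested. Abcg1 was lower without overlap, at -0.20 ± 0.065 in AS (limma adjusted p = 0.29) and -0.17 ± 0.065 in PS animals against control (0.26). Lrp1 varied most between mice of one group, from 12062 to 22138 normalized counts in AS saline libraries. The low value was that of AS saline mouse 44, and AS DEX mouse 60 was at 11959. Every other AS library was at 18812 or more, and the cause was not tested. For the 17 synthesis genes, the median change was -0.00 in PS and 0.04 in AS animals against control, none passed, and the most distant were Pmvk at 0.18 in PS and Mvd at 0.19 in AS animals. Dhcr7 was lower in PS animals without overlap, from 735 to 756.8 against 777.2 to 836.1 in control saline libraries (-0.11 ± 0.076, limma adjusted p = 0.554).

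**Figure D5:**
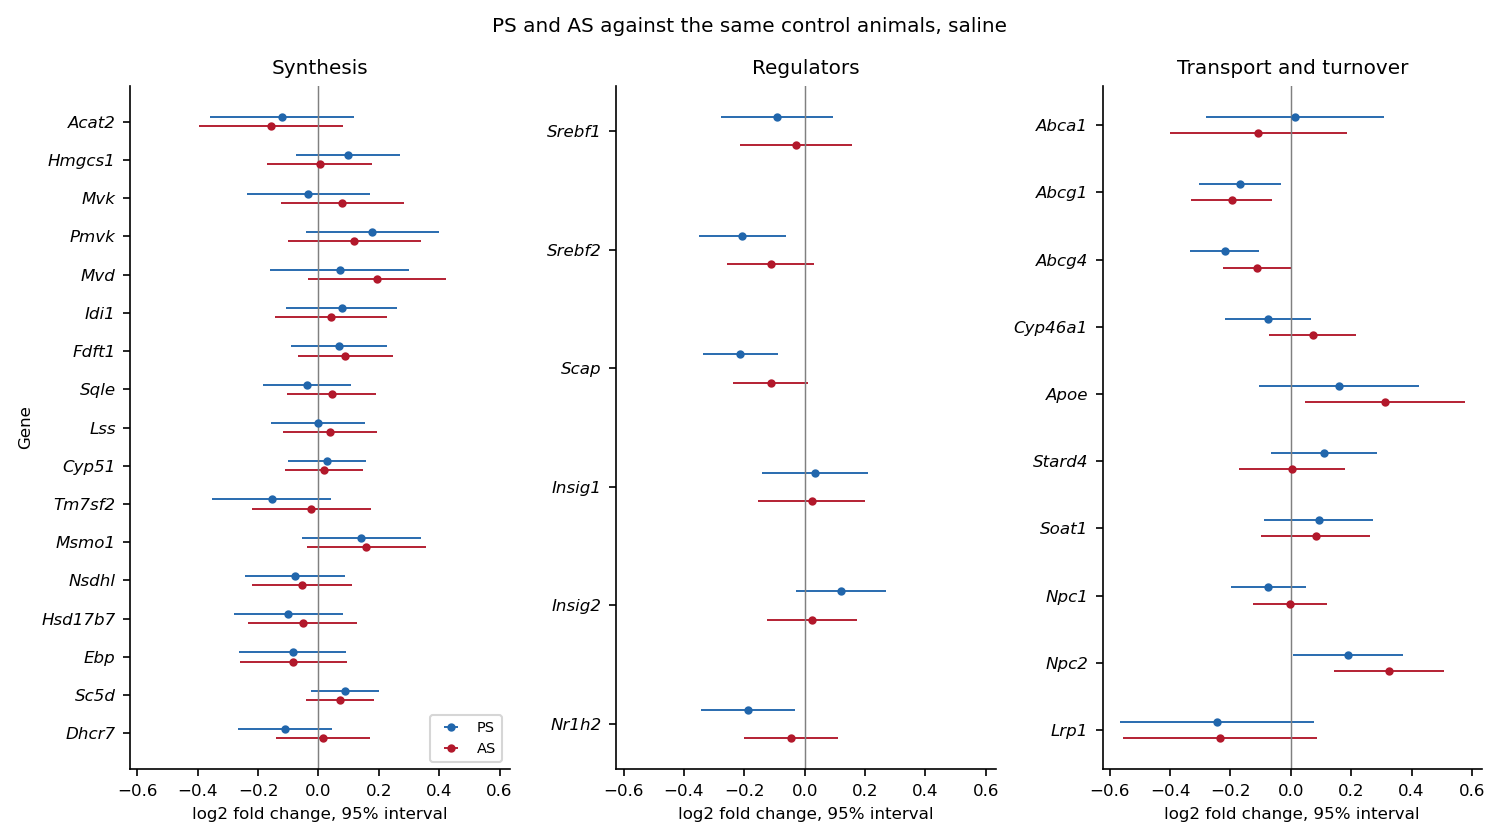
Log2 fold change of PS and of AS against control animals under saline with its 95% interval (horizontal axes) for each gene (rows), in panels for synthesis, regulators, and transport and turnover. Both comparisons use the same 4 control libraries. The synthesis intervals include 0. Those of Scap, Srebf2, Nr1h2 and Abcg4 in PS and of Abcg1 in PS and AS lie below it. Those of Npc2 in PS and AS and of Apoe in AS lie above it.

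Neighbouring lipid genes were examined with 2 further lists. Of 12 fatty acid synthesis genes, none passed in control animals after DEX, 1 passed in PS animals (8.33%, against 5.36% of all genes) and 2 in AS animals (16.7%, against 8.77%), all lower. Gpam, which encodes the first acyltransferase of glycerolipid synthesis, was at 1952, 1926, 1818 and 1857 normalized counts in PS saline and at 1612, 1286, 1572 and 1530 in PS DEX libraries, and every DEX library was lower. It fell by 0.34 ± 0.092 in PS (limma adjusted p = 0.0379) and by 0.34 ± 0.092 in AS animals (0.0272). The AS libraries overlapped, at 1939, 1912, 2121 and 1603 with saline and at 1504, 1469, 1314 and 1693 with DEX. The PS call was lost without PS saline mouse 2, without PS DEX mouse 34 and without all libraries high in olfactory bulb genes (adjusted p = 0.393), and the AS call when only these groups were fitted (adjusted p = 0.113) or without AS saline mouse 40. The fatty acid desaturase gene Fads2 fell by 0.28 ± 0.074 in AS animals (limma adjusted p = 0.0234; 0.107 without those libraries). Its AS libraries were at 4032, 4016, 4128 and 3732 with saline and at 3345, 3150, 3373 and 3238 with DEX. Over all settings tried, the changes ran from -0.31 to -0.26 for Fads2 in AS and from -0.37 to -0.25 for Gpam in PS animals. Fasn and Scd1, classic SREBP1 targets, did not pass in any comparison. In the mean over phenotypes 2 of the 12 passed (16.7%, against 15.5% of all genes), Gpam at -0.23 ± 0.053 (limma adjusted p = 0.00391) and Fads2 at -0.14 ± 0.042 (0.0371; 0.108 without the libraries high in olfactory bulb genes). Over all settings tried, the mean change of Fads2 ran from -0.16 to -0.11. In the stress comparisons none of the 12 genes passed.

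Of 20 further genes of sterol handling, 1 passed in control animals after DEX (5%, against 6.49% of all genes) and none in PS or AS animals. This was Apod, encoding a lipid-binding lipocalin, which was at 2207, 2382, 2738 and 3552 normalized counts with saline and at 5243, 3926, 3447 and 4096 with DEX (0.63 ± 0.198, limma adjusted p = 0.078). Control saline mouse 117 overlapped the DEX libraries, and the call was lost without any one of 6 libraries. In the mean over phenotypes 3 passed (15%, against 15.5% of all genes): the reelin and apolipoprotein E receptor gene Lrp8 fell by 0.21 ± 0.050 (limma adjusted p = 0.00469), while Rxra, the partner of liver X receptors, rose by 0.25 ± 0.058 (0.00406). Gramd1b, which encodes a carrier of cholesterol from the plasma membrane, rose by 0.15 ± 0.045 (0.0294; 0.146 without the libraries high in olfactory bulb genes). Over all settings tried, the mean change of Gramd1b ran from 0.13 to 0.18. None of the 20 passed in the stress comparisons.

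Markers of other cell types moved with DEX beside these genes, and their counts stand beside 4.03% higher and 2.46% lower of all genes in control mice, 2.74% and 2.62% in PS mice, and 3.82% and 4.95% in AS mice. Of 8 endothelial markers, none passed in control, 1 was lower in PS (Tek) and 4 were lower in AS animals (Tek, Pecam1, Emcn and Flt1), with medians of 0.23, -0.33 and -0.67 on the log2 scale. Their summed normalized counts, with Flt1 the most abundant, were 6579, 4546, 7529 and 5423 in AS saline and 3408, 3358, 5256 and 3200 in AS DEX libraries. In control animals the sums were 5164, 6412, 7054 and 5176 with saline and 8435, 6702, 5592 and 6995 with DEX, and in PS animals 4759, 5600, 6063 and 6913 with saline and 5084, 3051, 4833 and 6810 with DEX. The AS DEX libraries were thus low in this sum, with mouse 60 the exception. Of 6 mural markers, 3 were lower in AS animals (Rgs5, Acta2 and Vtn) and none passed in control or PS animals.

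Of 10 oligodendrocyte markers, 3 were lower in control (Mag, Ermn and Aspa), 1 was lower in PS (Aspa), and 3 were higher in AS animals, Mal and Mobp among them. Aspa was at -0.45 in AS animals and Mal at 0.20 in control animals on the log2 scale, neither past the threshold (limma adjusted p = 0.106 and 0.548). The summed normalized counts, with Mbp the most abundant, were 34959, 32185, 36503 and 50435 in control saline and 28507, 30013, 40325 and 28275 in control DEX libraries. In AS animals they were 21267, 31766, 23942 and 36298 with saline and 43854, 35296, 49673 and 33955 with DEX, and in PS animals 26246, 37841, 30416 and 33822 with saline and 39383, 34773, 42814 and 33382 with DEX. Of 12 astrocyte markers, Gjb6 and Fgfr3 were higher in all 3 phenotypes, Aldh1l1 was higher in control and PS, Aqp4 was lower in PS and AS, and Gfap was lower in AS animals. Of 8 microglial markers, P2ry12 and Aif1 were lower in all 3 phenotypes, and Cx3cr1 was lower in PS and AS animals. Under saline no gene of these lists passed between phenotypes. The oligodendrocyte markers had medians of -0.17 in PS and -0.44 in AS against control animals, and the astrocyte markers, with Slc1a2 the most abundant, had medians of 0.08 and 0.19. No marker of these lists was at 0 in a library. Some smaller lists also differed between DEX and saline libraries, in genes past the threshold or only in values without overlap. Of 4 oligodendrocyte precursor markers, 2 were higher in control animals, where the summed normalized counts were 5082, 5151, 4867 and 4960 with saline and 5605, 5381, 5490 and 5991 with DEX, without overlap. Of the 3 striatal markers measured, 1 was higher in AS animals, and the mean centred log2 value of the 3 did not overlap between saline and DEX in PS animals (-0.21 to 0.03 against 0.05 to 0.14) or AS animals (-0.40 to 0.01 against 0.03 to 0.41). Of 4 blood genes none passed, and their sums in PS animals were 1985, 2466, 2591 and 1909 with saline and 1127, 1638, 1054 and 1325 with DEX, without overlap. Of the choroid plexus markers Kcnj13 alone was measured, at 37.8, 35.7, 50.9 and 22.3 in control saline and at 83.6, 91.5, 66.7 and 73.2 in control DEX libraries, without overlap and not past the threshold. Of 4 leptomeningeal markers 1 was higher in control animals, of 6 GABAergic markers 1 was higher in control and 1 in AS animals, and of 6 pyramidal neuron markers 1 was lower in control (Neurod6) and 1 higher in AS animals. The part of these markers in the differences of Fdft1, Hsd17b7, Abca1, Abcg1, Abcg4, Srebf2, Soat1 and Apoe was not tested.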

How the data were processed

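RNA-seq of the PFC of 24 mice was used, and groups and mouse numbers came from the labels. Per the submitters' processing notes and the study's methods, the authors trimmed reads with fastp 0.20.1, aligned them to mm10 (GRCm38) with HISAT2 2.2.1, counted them per gene with featureCounts of Subread 2.0 and normalized them with DESeq2 1.36.0. The deposited signal is thus a gene's reads after the authors' division by the size factor of its library. Fold changes and p-values that the authors deposited were not used.

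Whole reads were recovered for 100% of the values within 0.01 read, and these counts of the deposited values gave the depths and the input of edgeR and DESeq2. The genes listed, and the lists, were chosen with earlier results of these data known. All 35 genes of the set were named, with values per library for those past the threshold and, of the fatty acid and sterol handling lists, the genes past it; cell type markers were partly given by count. Apoe, Msmo1, Sqle, Scap, Nr1h2, Npc2 and Lrp1, which did not pass, were singled out after their values were seen. With so few mice a side, the groups of some genes separate by chance. The share of all genes without overlap was not counted, and not every listed gene without overlap is named as such.

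Differences were tested with limma 3.58.1 in R 4.3.3 (trend) on log2(normalized count + 1) over all 14074 genes, with 1 mean per group, all 24 libraries and Benjamini-Hochberg adjustment, at adjusted p under 0.1. The plan had named the genes that the authors tested, but their p-values were not used and all genes of the table were tested. The study states a filter of at least 10 aligned reads in each sample, which was run as an alternative. A fold change on this scale understates changes of low genes. The samples were single mice. Alternatives were edgeR 4.0.16, DESeq2 1.42.0, a pseudocount of 8, a mean of at least 100 normalized counts, quantile normalization, only the groups compared and leaving out each library. Chosen after seeing the data were at least 10 reads in every library (13161 genes) and leaving out the 6 libraries with over 300 normalized counts of Cdhr1. Exon lengths were unions of GENCODE vM21 exons, and positions are those of the deposited table. The script was tested on simulated data, with 200 genes changed by known folds after DEX in control animals. There limma recovered 63% of genes changed by 0.4 on the log2 scale and 98% of those changed by 0.8. Recovery was 63% and 97% with edgeR and 71% and 98% with DESeq2. Of the calls, 12.0% were false with limma, 8.57% with edgeR and 16.3% with DESeq2. Some marker genes past the threshold are not named here.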

Additional observations from a re-analysis of the deposited data

Results flagged for a closer look

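In 11 of 198 tests, which took each of the 33 genes in each group of 4 mice, 1 mouse lay far from the other 3, with a gap to the nearest past Dixon's 95% critical value. By chance about 5% of such tests show this. Among synthesis genes, Hmgcs1 was low in PS saline mouse 68 (7781 normalized counts, the others from 8068 to 8101), Mvk was low in AS saline mouse 40 (461.5) and Lss was low in AS saline mouse 44 (1109, the others from 1317 to 1338). Idi1, the isomerase of isopentenyl pyrophosphate, was high in PS saline mouse 62 (470.7) and low in PS DEX mouse 34 (357.6). Msmo1 was low in control saline mouse 117 (1310, the others from 1539 to 1582).

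Among regulators, Srebf2 was high in PS DEX mouse 34 (7809) and Insig2 was high in PS DEX mouse 52 (1034). Among transport genes, Cyp46a1 was high in control DEX mouse 101 (8324, the others from 7155 to 7223) and in AS saline mouse 8 (7911), and Npc2 was high in control DEX mouse 101 (1531, the others from 1187 to 1233). PS DEX mouse 34 and control saline mouse 117 were among the libraries high in olfactory bulb genes.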

How the results depend on the processing

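No paired analysis was possible because mouse numbers do not recur between groups. The following planned settings gave no separate value: testing every gene of the table is the fit reported, and for the mean DEX response all groups are compared.

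For the genes and comparisons past the threshold in the fit reported, fatty acid and sterol handling genes included, 851 values under other settings were compared. Of these, 807 kept direction and side of the threshold, 44 kept direction only and 0 changed sign. Genes not past the threshold were not in this count. The number of the 33 genes called in PS against control animals was 1, but 2 with DESeq2, 2 with only the groups compared, 0 without the libraries high in olfactory bulb genes and 0 to 2 without single libraries. It was 0 in AS against control animals, but 1 with DESeq2. After DEX it was 4 in control animals (2 to 4 without single libraries), 3 in PS animals (2 to 4) and 2 in AS animals (2 to 5), the last being 4 with edgeR and 4 with DESeq2, which called 1330 and 1614 of all genes there against 1234 with limma. For the mean response it was 8 (7 to 10), and for the AS minus control response 0, but 1 with DESeq2 and 0 to 1 without single libraries.

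Counts over all genes moved more. In PS against control animals 213 became 431 with DESeq2, 523 with only the groups compared and 26 without the libraries high in olfactory bulb genes, and in AS against control animals 22 became 99 with DESeq2, 9 with at least 10 reads, 5 with a mean of at least 100 and 10 without those libraries. Without those libraries 913 became 577 in control and 755 became 395 in PS animals after DEX, and with only the groups compared 1234 became 753 in AS animals. For the AS minus control response, 49 became 439 with DESeq2, 77 with edgeR, 82 with only the groups compared, 31 with quantile normalization, 1 with a mean of at least 100 and 3 without those libraries. For the PS minus control response, 0 became 23 with DESeq2, 9 with a pseudocount of 8, 4 with quantile normalization and 1 with only the groups compared, and for AS against PS animals 0 became 11 with DESeq2. AS saline mouse 44 moved several counts: without it 213 became 348, 1234 became 1985 and 49 became 686. Without PS saline mouse 2, 213 became 57, without AS saline mouse 8, 1234 became 673, and without control saline mouse 117, 49 became 4. The causes were not tested. With 4 mice a group, the unadjusted 95% interval of a difference within 1 phenotype reached 0.177 on the log2 scale to either side for the median synthesis gene.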
